A study of Drosophila melanogaster with 6 samples.

Results

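The genes of the adult midgut were compared right after exposure to Pe, a treatment whose abbreviated name the labels leave unexplained. The set is every gene with a mean over all libraries (baseMean) of at least 20 normalized reads, which takes in 8350 of the 14026 genes in the deposited table. Both groups came from wild-type Oregon-R Drosophila melanogaster aged 4 to 5 days, with 2 libraries of total midgut RNA in each. The group here named Mock received sucrose, and the group named Pe day 0 received Pe. A group labelled Pe day 3, with 2 libraries from flies aged 7 to 8 days, is not itself described. For a few genes its values are set beside those of day 0. It also enters baseMean, and through it the choice of genes and the estimated group levels. The p-values rest on a spread that the authors' fit pools over all libraries it used. The labels do not say whether the libraries of a group came from separate dissections, so p-values measure the spread between libraries, which may be technical.

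The fly midgut is a single-layered gut epithelium. Absorptive enterocytes secrete digestive enzymes and take up nutrients, enteroendocrine cells release peptide hormones, and stem cells with their enteroblast daughters replace lost cells, all on a basement membrane wrapped in visceral muscle. When enterocytes are damaged they send cytokines and growth factors to the stem cells, and the epithelium can also shed damaged cells, close gaps by moving its actin cytoskeleton and alter its own transcription and translation.

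The deposited values are the authors' comparisons of whole groups. No value per library was used here, so the overlap of single libraries between groups cannot be given, and a level below is the estimated group mean in normalized reads (reads scaled by the size factor of each library). Estimated depth was between 1.76e7 and 1.90e7 reads for the Mock libraries and between 2.00e7 and 2.01e7 for Pe day 0. The header of the table names no groups. Its first comparison was taken as Pe day 0 against Mock because the table's title lists the groups in that sequence, and all directions depend on this reading. A gene is said to have risen or fallen where the deposited adjusted p (DESeq2's Wald test with Benjamini-Hochberg adjustment) was under 0.05. Because baseMean takes in all groups, a gene low elsewhere can pass the minimum through a single high group. For such a gene the filter itself favours a rise or a fall. In bulk tissue, fewer cells of a type and less RNA per cell cannot be told apart.

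Labelled tissue and markers were checked by list. All 6 enterocyte, 12 enteroendocrine, 10 progenitor and 11 visceral muscle markers were measured, as were 5 of 7 haemocyte, 4 of 8 fat body and ovary, 5 of 5 trachea, 4 of 5 neuron and 3 of 5 tubule and hindgut markers. The hindgut factor byn was at 0. Haemocyte markers summed to 0.0117% of the Mock counts and 0.0125% of the Pe day 0 counts, and fat body and ovary markers to 0.0296% and 0.0133%.

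Most measured genes changed. Of the 8350 genes, 4616 passed the test (55.3%). Of these 2228 were higher at Pe day 0 (26.7%), 2388 were lower (28.6%) and 3734 did not pass the test. At a change of at least 4-fold there were 335 higher genes (4.01%) and 325 lower genes (3.89%), and at 16-fold 93 and 67. Some genes past 16-fold had under 3 estimated reads over the whole Mock or Pe day 0 group. The size of their change is poorly fixed, as for a heat shock protein gene with a log2 fold change of 23.1, SE 4.78. The central 90% of the deposited log2 fold changes lay between -1.77 and 1.76, around a median of 0.00. The median standard error was 0.18 on the log2 scale. It was 0.44 for genes with a baseMean of 20 to 100 and 0.13 for those at 1000 or more, so small changes of weakly read genes were not detectable at this depth.

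The number of lower genes depended on the scale. The estimated size factors were 0.788 and 0.849 for Mock and 1.42 and 1.43 for Pe day 0, although the libraries were of like depth. On the deposited scale the normalized counts summed to 2.23e7 in Mock and 1.41e7 at Pe day 0. Dividing by library totals instead adds 0.67 to every log2 fold change, and the call then became 5205 higher (62.3%) and 909 lower (10.9%). All 2228 higher genes were higher on both scales. Of the 2388 lower genes, 909 stayed lower, 1299 no longer passed and 180 became higher. At 4-fold, all 335 higher genes but 165 of the 325 lower genes held on both scales. Which scale is nearer to RNA per cell cannot be read from these data, so the counts of each list below are given on both.

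**Figure D1:**
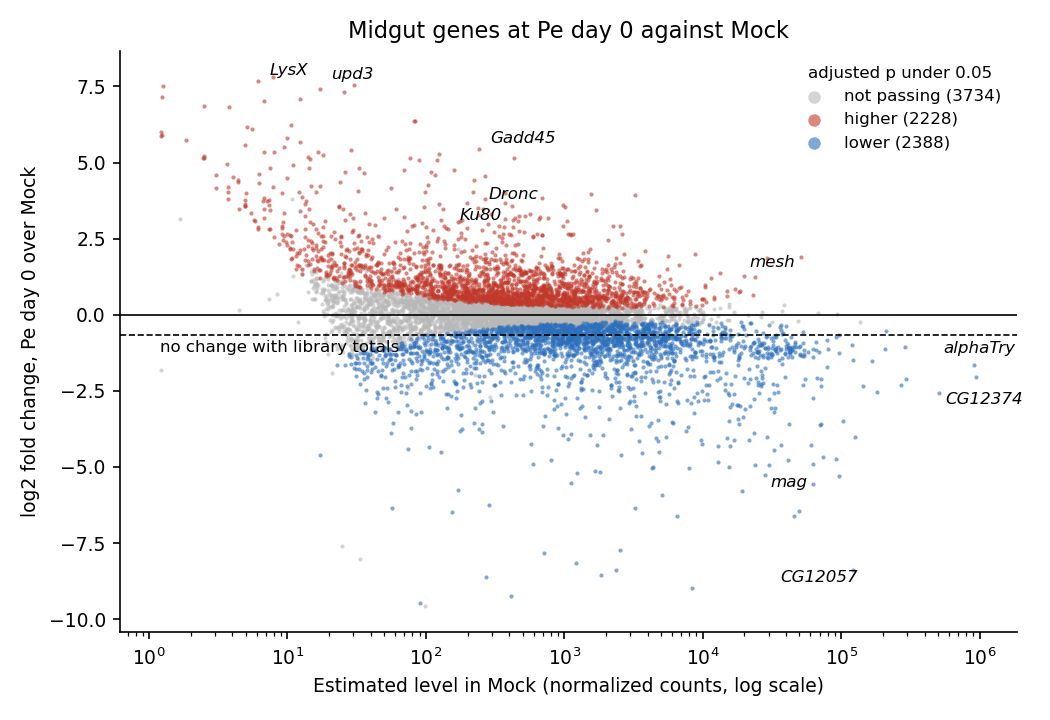
Each point is a gene with a baseMean of at least 20, with its estimated Mock level in normalized counts on a log axis and the authors' deposited log2 fold change; genes estimated below 1 in Mock or beyond 10 log2 units are left out. The solid line is no change as deposited and the dashed line is no change with library totals (-0.67), and the most abundant Mock genes at the right lie mostly below both lines.

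**Figure D2:**
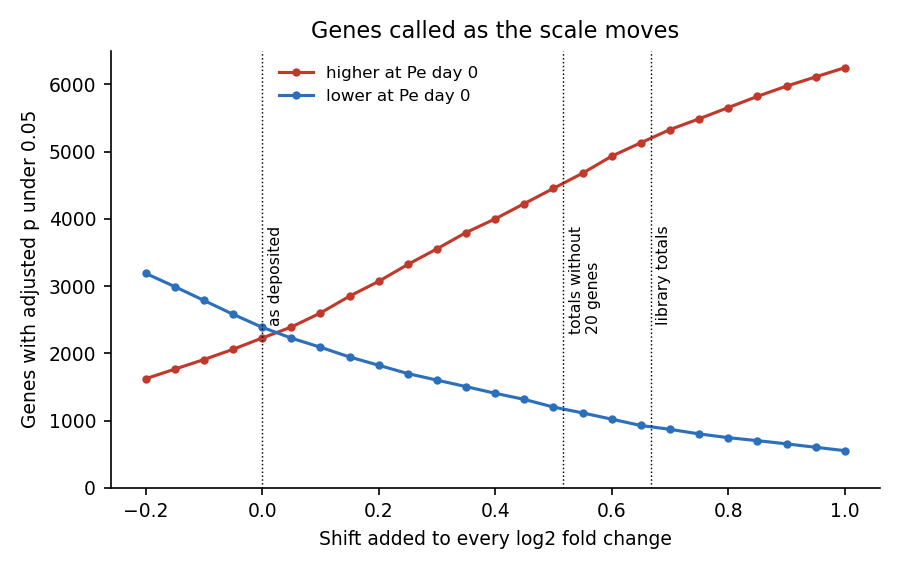
The number of genes with an adjusted p under 0.05 in each direction is plotted against a constant added to every log2 fold change. The counts are 2228 higher and 2388 lower as deposited and 5205 higher and 909 lower at the library totals.

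The named genes with the largest changes included genes of cytokines, stress proteins, detoxification and immunity among the rises and digestive enzymes among the falls. The cytokine gene upd2 went from 7.87 to 1758 normalized counts and upd3 from 17.1 to 2951 (log2 fold changes 7.80, SE 0.46 and 7.43, SE 0.31 in the authors' deposited table). GstD5, a glutathione S-transferase, went from 82.2 to 6852 (6.38, SE 0.25, the authors' deposited table). Drsl3, of the Drosomycin family of secreted peptides, went from 12.3 to 1678, and the nicotinamidase Naam from 89.2 to 3054. Their values in the authors' deposited table were 7.09, SE 0.36 and 5.10, SE 0.18. Arc2, a capsid-forming relative of retrotransposon Gag, rose from 28.7 to 1208 (5.40, SE 0.31, the authors' deposited table). The transcription factor Ets21C rose from 121 to 4138, and Cyp6d2, a cytochrome P450, from 371 to 5985. Among the falls, lcs went from 1834 to 4.92 normalized counts and whe from 2345 to 6.97 (log2 fold changes -8.54, SE 1.79 and -8.39, SE 1.82 in the authors' deposited table). Both errors were wide beside the median of 0.18 over all measured genes, so the size of these falls is poorly fixed. No function is given here for either gene. The alpha-mannosidase LManII went from 45616 to 464, the serine protease Jon25Biii from 62432 to 1332 and the cytochrome P450 Cyp4d1 from 1231 to 33.9. All 3 fell on both scales. Copies of the GstD and Jonah families are near-identical in places, and reads may be split between them.

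Transcripts that were most abundant in Mock held a smaller share of the counts at Pe day 0. The 12 genes with the highest Mock level held 19.1% of Mock counts and 9.57% of Pe day 0 counts, and 11 of them fell (10 with library totals, where 1 rose). Among the 100 most abundant Mock genes, 93 fell and 1 rose (79 and 9 with library totals), and their share went from 41.7% to 24.6%. Choosing genes by their Mock level in itself leans them toward a fall. The 100 most abundant genes at Pe day 0 held 29.4% of its counts, and 67 genes were in both sets of 100. The list of trypsins and chymotrypsin-like proteases, secreted enzymes that cut dietary protein, fell in 30 of 30 measured members with a median log2 fold change of -2.33, and in 29 with library totals. The trypsin alphaTry went from 909968 normalized counts in Mock to 290114 at Pe day 0 (log2 fold change -1.65, SE 0.13 in the authors' deposited table). The carboxypeptidase-like gene CG12374 went from 940287 to 229701 (-2.03, SE 0.15 in the authors' deposited table). Some trypsins are near-identical copies, and how the authors' counting split their reads is not given.

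Digestive enzymes did not move as 1 block. Lysozymes and lysosomal alpha-mannosidases, which digest bacterial walls and glycans, fell in 11 of 12 measured members, also with library totals, with a median of -4.24. LysX was the exception and rose from 6.16 to 1252 normalized counts (log2 fold change 7.67, SE 0.49, the authors' deposited table). The neighbour LysP went the other way, from 170 to 3.15 (log2 fold change -5.76, the authors' deposited table), with a wide error. Among 14 maltases and amylases, which release glucose from starch and disaccharides, 4 rose and 3 fell (7 and 1 with library totals). As deposited these shares were near those over all genes. The glucosidase tobi rose from 50997 to 188194 normalized counts (1.88, SE 0.24 in the authors' deposited table), which placed it below only alphaTry and CG12374 at Pe day 0. Genes of the peritrophic matrix, chitin and mucins, the lining between food and epithelium, had 7 higher and 6 lower of 19 as deposited, against 8 and 3 with library totals. The mucin gene Muc18B rose from 5.10 to 364 normalized counts (6.16, SE 0.61 in the authors' deposited table), and the chitinase Cht4 from 159 to 4268 (4.75, SE 0.67 in the authors' deposited table).

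**Figure D3:**
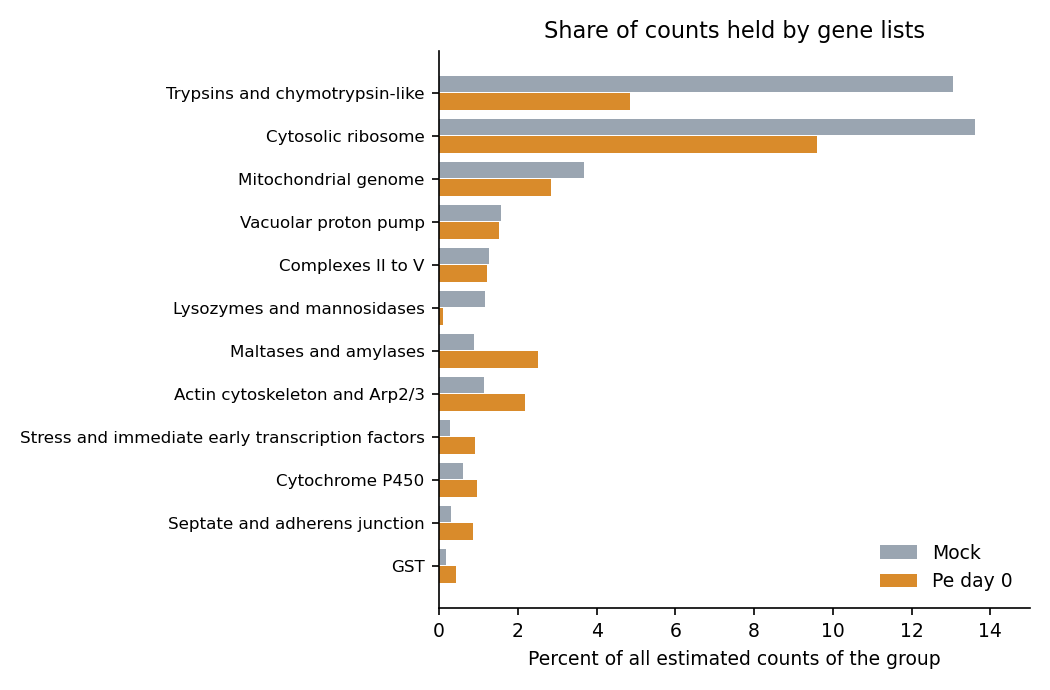
Bars give the percent of all estimated counts of a group held by each of 12 gene lists in Mock and at Pe day 0, from an axis that starts at 0. Trypsins and ribosomal proteins hold a smaller share at Pe day 0, and the actin and stress factor lists a larger one.

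Many genes of nutrient uptake and lipid use fell. Among 26 sugar and amino acid transporters, 16 fell and 5 rose (12 and 8 with library totals), with a median of -0.91. The amino acid transporter NAAT1 went from 5465 to 716 normalized counts (-2.93, SE 0.22 in the authors' deposited table), and the transporter MFS1 from 5422 to 337 (-4.01, SE 0.20, the authors' deposited table). Sterol uptake genes and lipases fell in 12 of 18 members, with 2 higher (10 and 4 with library totals), and a median of -1.48. The lipase mag, which digests dietary lipid and sterol esters, fell from 28091 to 728 normalized counts (-5.27, SE 0.15 in the authors' deposited table). Of 7 members of the Npc2 sterol carrier family 6 fell and 1 rose (5 and 1 with library totals), a subgroup drawn after its values were seen. Npc2d fell (-3.73, SE 0.23) and Npc2a rose (1.32, SE 0.16) in the authors' deposited table. The sterol transporter Npc1b, which takes up dietary sterol, fell from 12992 to 3577.

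Inside the cell, fatty acid oxidation fell in 11 of 15 members and rose in 1 (6 and 5 with library totals), with a median of -0.70. All 4 members of the carnitine shuttle, which carries fatty acids into mitochondria, fell on both scales, with a median of -1.34 (a subgroup drawn after its values were seen). The shuttle gene whd, the outer-membrane carnitine palmitoyltransferase, went from 9815 to 3887 normalized counts (-1.34, SE 0.20 in the authors' deposited table), and CRAT, the carnitine acetyltransferase, from 1728 to 563 (-1.62, SE 0.14, the authors' deposited table). The lipid droplet coat proteins Lsd-1 (-2.34, SE 0.30) and Lsd-2 (-1.82, SE 0.17) fell in the authors' deposited table. So did Acsl, which activates fatty acids (-1.98, SE 0.12), and the lipoprotein receptor LpR1 (-2.81, SE 0.21). FASN1, a fatty acid synthase, went from 5741 to 6765 (0.24, SE 0.16 in the authors' deposited table), which did not pass as deposited and was higher with library totals. Among 17 fatty acid and triglyceride synthesis genes 10 fell and 1 rose, against 7 and 6 with library totals.

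The lists of nuclear respiratory complexes, the vacuolar proton pump and the secretory pathway fell on the deposited scale. Few of these calls held with library totals. Of 33 complex I subunits 32 fell, with a median of -0.82, but 5 stayed lower and 2 were higher with library totals. Of 37 subunits of complexes II to V, 36 fell and 1 rose (7 and 3 with library totals). Of 21 subunits of the vacuolar proton pump, which acidifies lysosomes and the midgut lumen, 19 fell and 1 rose, with a median of -0.65, but 0 were lower and 2 higher with library totals. The secretory pathway list fell in 34 of 40 members (7 with library totals, where 11 were higher), with a median of -0.61. Entry into the endoplasmic reticulum, drawn after its values were seen, fell in 14 of 16 members and rose in 0, and with library totals 5 were lower and 2 higher. At the translocation channel TRAM (-1.51, SE 0.14) and the pore subunit Sec61alpha (-1.11, SE 0.14) fell in the authors' deposited table, and Srp54k, the signal sequence binding subunit, fell from 2466 to 1471 normalized counts but did not pass with library totals. Endoplasmic reticulum chaperones were lower, with Gp93 at -1.40, SE 0.14 and Hsc70-3 (BiP) at -1.09, SE 0.13 in the authors' deposited table. Cytosolic ribosomal proteins fell in 82 of 83 members, with a median of -1.17, and in 79 with library totals. Of the 12 genes of the mitochondrial genome 11 fell and 7 stayed lower.

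Not all of protein synthesis and turnover moved with the ribosome. Of 33 proteasome subunits 2 rose and 1 fell on the deposited scale, with a median of 0.03, and 32 were higher and 0 lower with library totals. All 8 subunits of the CCT chaperonin, which folds actin and tubulin, rose on both scales, with a median of 0.54. Of 20 aminoacyl-tRNA synthetases 5 rose and 2 fell, with a median of 0.13, and all 20 were higher with library totals. Of 35 translation initiation factors 5 rose and 19 fell (24 and 1 with library totals). eIF6, which keeps ribosomal subunits apart, rose from 1124 to 3023 normalized counts (1.43, SE 0.15 in the authors' deposited table), and eIF1, which checks start codons, fell from 6051 to 2759 (-1.13, SE 0.10, the authors' deposited table). Of 26 nuclear pore members 20 rose and 0 fell (26 and 0 with library totals), with a median of 0.71, among them Nup58 (1.54, SE 0.21 in the authors' deposited table) and Nup98-96 (1.43, SE 0.14, the authors' deposited table).

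The balance of several other lists depended on the scale. Over all 8350 genes 26.7% rose and 28.6% fell as deposited, against 62.3% and 10.9% with library totals. A list near these shares moved as all genes did. Of 73 mitochondrial ribosomal proteins 4 rose and 8 fell, but 54 were higher and 0 lower with library totals. Of 18 glycolysis genes 2 rose and 5 fell (14 and 0 on the totals scale), and of 15 genes of the tricarboxylic acid cycle 1 rose and 12 fell (6 and 2). Of 30 nucleolar factors of ribosome assembly 9 rose and 4 fell (25 and 0). Of 19 autophagy genes 4 rose and 6 fell (12 and 1), and of 22 genes that make purines and pyrimidines 8 rose and 6 fell (13 and 1). Among 21 genes that respond to misfolded protein in the endoplasmic reticulum or to integrated stress, 5 rose and 13 fell (10 and 4). Among 22 heat shock proteins 11 rose and 4 fell (17 and 2), with a median of 0.82.

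**Figure D4:**
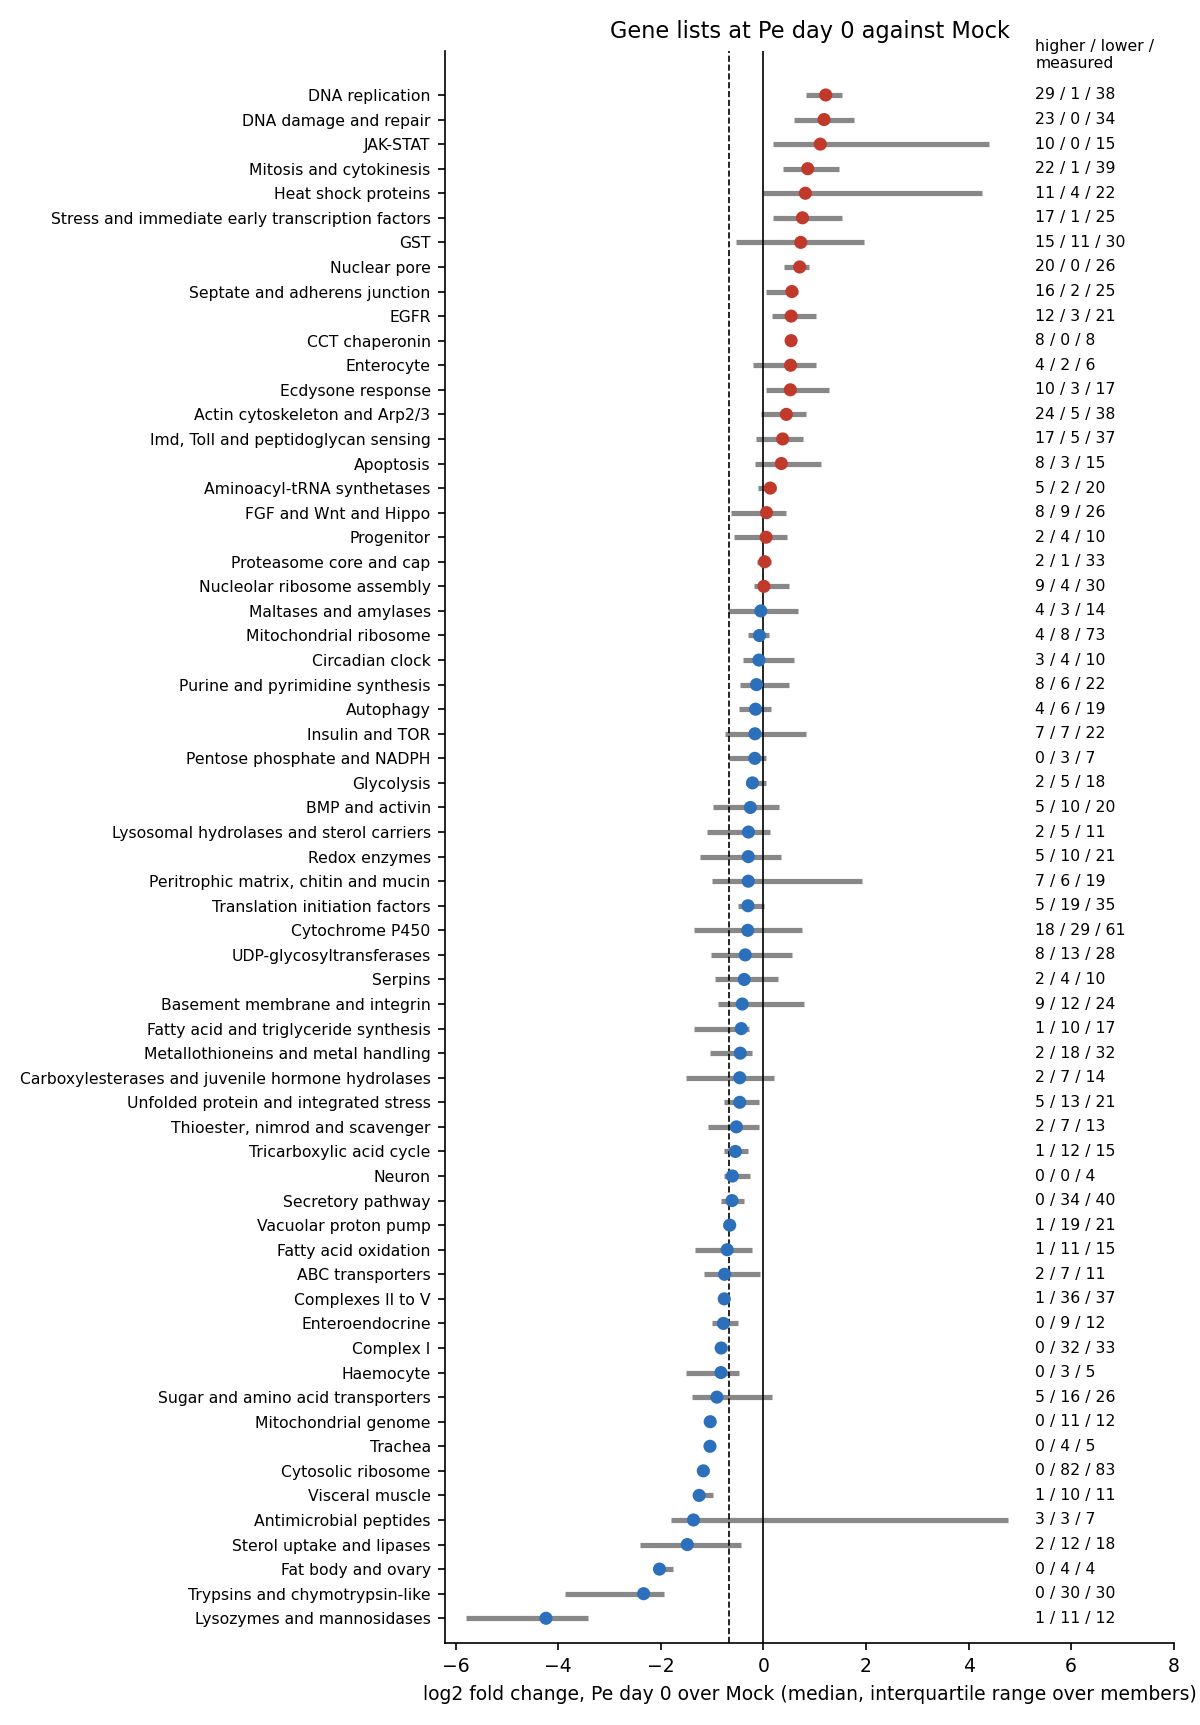
Points are the median log2 fold change over the measured members of each list, grey bars the interquartile range, and the numbers at the right give higher, lower and measured members at an adjusted p under 0.05 as deposited. The solid line is the median of all 8350 genes and the dashed line is no change with library totals. Lists to the left of the dashed line, such as lysozymes, trypsins and the ribosome, lie below both scales.

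DNA damage and repair genes rose in 23 of 34 members and fell in 0, against 26.7% and 28.6% of all genes, with a median of 1.18 (32 and 0 with library totals). Gadd45, a stress and damage response gene, went from 241 to 10486 normalized counts (log2 fold change 5.44, SE 0.13 in the authors' deposited table). p53, the transcription factor that answers DNA damage, went from 297 to 2954 (3.32, SE 0.13, the authors' deposited table). Nonhomologous end joining, which rejoins broken ends, rose at several steps. The end-binding pair Irbp (Ku70) and Ku80 went from 130 to 1111 and from 146 to 1032 normalized counts. Their values in the authors' deposited table were 3.10, SE 0.19 and 2.82, SE 0.21. The ligase Lig4 rose as well (1.47, SE 0.20, the authors' deposited table).

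The complex that senses double-strand breaks, made of mre11 (1.19, SE 0.18), rad50 (1.40, SE 0.17) and nbs (2.67, SE 0.18), rose in all 3 members in the authors' deposited table. Excision of bulky damage was represented by Ercc1, which rose from 23.4 to 272 (3.54, SE 0.35 in the authors' deposited table). The translesion polymerase subunit mus205 rose too (2.10, SE 0.23, the authors' deposited table). The checkpoint kinase grp (Chk1) rose (1.52, SE 0.15). The kinases that relay break signals did not pass the test: tefu (ATM) was 0.02, SE 0.25 and lok (Chk2) was -0.14, SE 0.21 in the authors' deposited table, although both were higher with library totals. Among double-strand break genes 8 of 11 rose (10 with library totals) and among nucleotide excision genes 7 of 7 rose on both scales, and 0 fell in either, both subgroups drawn after their values were seen.

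DNA replication genes rose in 29 of 38 members and fell in 1 (37 and 0 with library totals), with a median of 1.22. All 6 members of the MCM helicase, a subgroup drawn after its values were seen, rose on both scales with a median of 1.42. RpA-70, the single-stranded DNA binding subunit, went from 592 to 3554 (2.59, SE 0.14 in the authors' deposited table). Mitosis and cytokinesis genes rose in 22 of 39 and fell in 1 (35 and 0 with library totals), with a median of 0.87. Of 10 progenitor markers, 2 rose and 4 fell (6 and 2 with library totals), at 0.0122% of Mock counts and 0.0132% of Pe day 0 counts. Their part in the replication result was not tested.

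**Figure D5:**
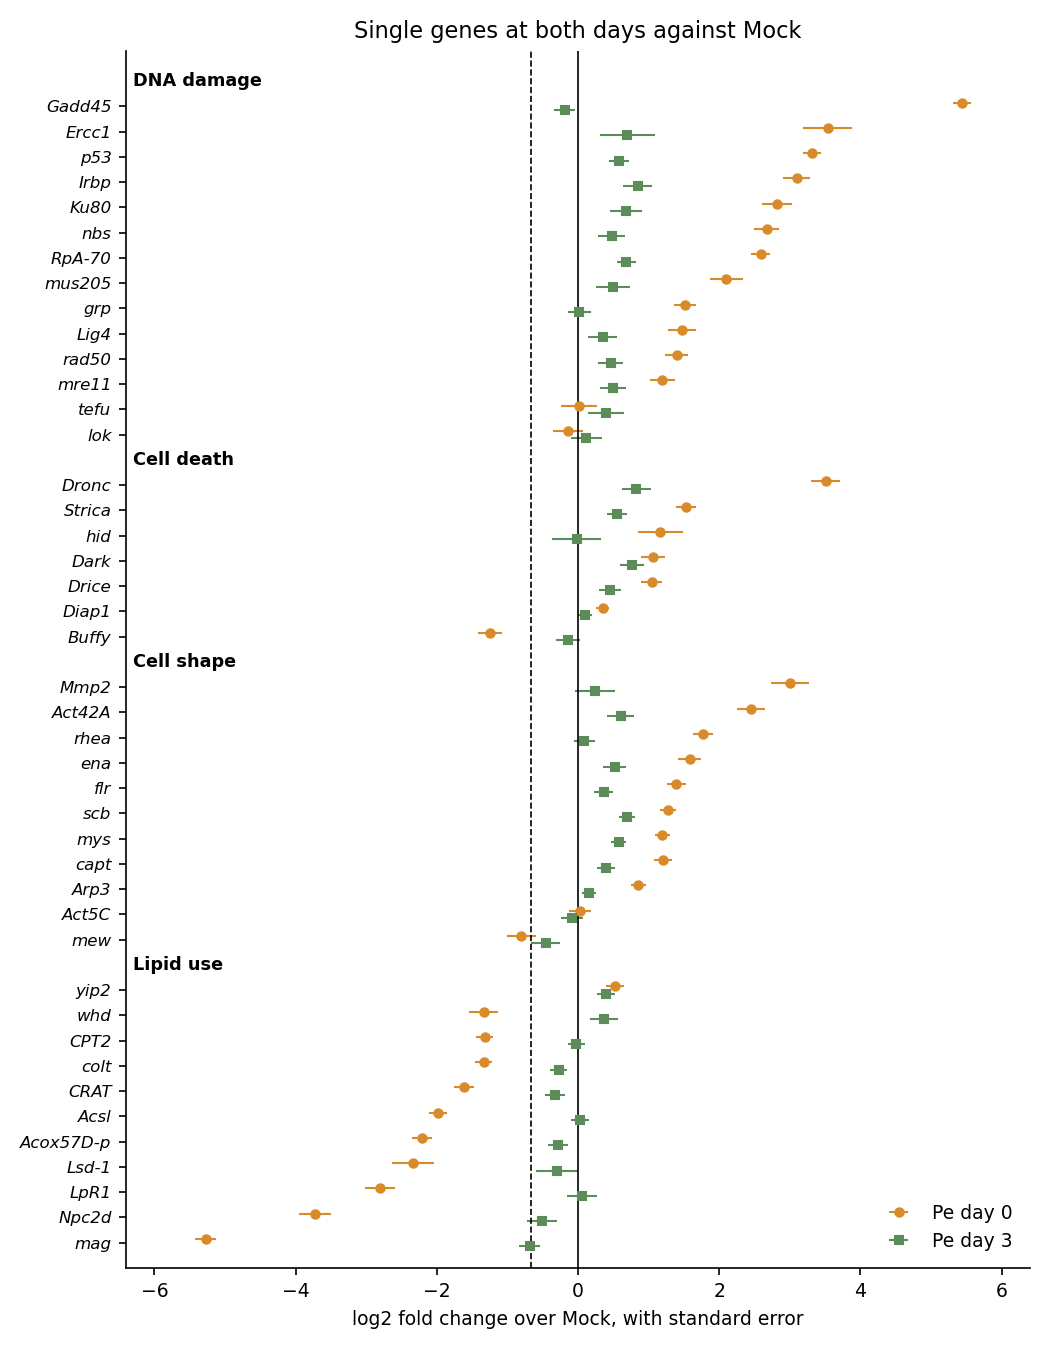
Points give the authors' deposited log2 fold change over Mock with its standard error at Pe day 0 (circles) and Pe day 3 (squares) for named genes of 4 groups; both comparisons share the Mock libraries. The solid line is no change as deposited and the dashed line no change at day 0 with library totals (-0.67). Most of the DNA damage genes lie to the right of 0 at day 0, and the lipid use genes other than yip2, a thiolase, to the left.

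Cell death genes rose in 8 of 15 members and fell in 3 (11 and 1 with library totals). Of 7 caspases, the proteases that carry out cell death, 5 rose and 0 fell (7 and 0 with library totals), with a median of 0.87. The caspase subgroup was drawn after its values were seen. The initiator caspase Dronc went from 236 to 2687 normalized counts (3.51, SE 0.20 in the authors' deposited table). The adaptor Dark, which builds the platform that activates Dronc, rose (1.06, SE 0.17), as did the effector Drice (1.04, SE 0.15) and Strica (1.53, SE 0.14), in the authors' deposited table. Of the genes that set the balance, the trigger hid rose (1.17, SE 0.32) and the Bcl-2 relative Buffy fell (-1.25, SE 0.17) in the authors' deposited table. Diap1, which holds caspases in check, went from 3784 to 4824 normalized counts (0.35, SE 0.09, adjusted p = 0.000661 in the authors' deposited table).

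Transcription factors of stress and early response rose in 17 of 25 members and fell in 1 (23 and 0 with library totals), with a median of 0.76. The C/EBP factor slbo, known for its role in migrating border cells, went from 7.14 to 95.6 (3.74, SE 0.58 in the authors' deposited table). Jra, the fly Jun, rose (1.54, SE 0.12), as did peb (1.44, SE 0.11), Xrp1 (1.25, SE 0.13) and the orphan receptor Hr38 (1.65, SE 0.63, adjusted p = 0.0207), all in the authors' deposited table. The single factor that fell was foxo, which insulin signalling restrains (-0.88, SE 0.11 in the authors' deposited table), a call lost with library totals.

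Genes of the ecdysone response, the steroid hormone pathway that times moults and also acts in the adult gut, rose in 10 of 17 members and fell in 3 (14 and 1 with library totals). The nuclear receptor Hr4 went from 29.3 to 192 (2.71, SE 0.40 in the authors' deposited table). Eip75B (1.29, SE 0.19) and Kr-h1 (1.22, SE 0.24) rose and Eip71CD, a methionine sulfoxide reductase, fell (-3.01, SE 0.14), in the authors' deposited table. Of 10 clock genes 3 rose and 4 fell as deposited, but 7 were higher and 1 lower with library totals. The repressor per went from 135 to 1019 (2.91, SE 0.22 in the authors' deposited table) and vri rose (2.06, SE 0.19). The partner tim was 0.23, SE 0.20 and passed only with library totals, and the light receptor cry fell (-1.12, SE 0.15), in the authors' deposited table. The labels used here give no time of day, so a difference in sampling time cannot be told apart from the treatment.

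Among 15 JAK-STAT genes 10 rose and 0 fell (15 and 0 with library totals), with a median of 1.11. The receptor dome rose (0.99, SE 0.17), while the kinase hop (0.04, SE 0.15) and the transcription factor Stat92E (0.08, SE 0.10) did not pass the test in the authors' deposited table and were higher with library totals. The transcriptional repressors chinmo (2.17, SE 0.36) and ken (1.86, SE 0.35) rose in the authors' deposited table. Among 21 EGFR genes 12 rose and 3 fell (19 and 1 with library totals). The protease rho, which releases EGFR ligands, went from 3.66 to 114 normalized counts (4.97, SE 0.70 in the authors' deposited table), a low level in Mock. The growth factor Pvf1 rose from 443 to 2181 (2.30, SE 0.15) and its receptor Pvr rose (1.08, SE 0.11), in the authors' deposited table.

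In the insulin and TOR list 7 of 22 rose and 7 fell as deposited, shares near those over all genes (14 and 4 with library totals). The phosphoinositide kinase adaptor Pi3K21B (2.61, SE 0.21), the receptor InR (0.96, SE 0.23) and the TOR inhibitor chrb (1.33, SE 0.20) rose in the authors' deposited table. The translation repressor Thor (-1.26, SE 0.15), the stress sensor Sesn (-1.46, SE 0.19) and REPTOR-BP, a cofactor of a TOR-controlled transcription factor (-1.70, SE 0.15), fell in the authors' deposited table. In the BMP and activin list 5 of 20 rose and 10 fell (10 and 2 with library totals). Its largest rise was the BMP-binding protein cv-2, which went from 108 to 2825 (4.70, SE 0.21 in the authors' deposited table). Of 26 genes of FGF, Wnt and Hippo signalling 8 rose and 9 fell as deposited, shares near those over all genes, and 17 were higher and 4 lower with library totals.

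Bacterial sensing genes moved in both directions. Of 37 genes of the Imd, Toll and peptidoglycan sensing list, 17 rose and 5 fell (27 and 4 with library totals). Among 11 peptidoglycan recognition proteins, a subgroup drawn after its values were seen, 6 rose and 4 fell (6 and 3 with library totals). PGRP-SA, the circulating sensor of the Toll pathway, rose from 14.4 to 159 (3.47, SE 0.47 in the authors' deposited table), as did PGRP-SD (2.60, SE 0.47) and the Imd inhibitor PGRP-LF (2.41, SE 0.45), in the same authors' deposited table. PGRP-SC1b, an amidase that degrades peptidoglycan, went from 1059 to 62.0 (-4.09, SE 0.34 in the authors' deposited table), and may share reads with a near-identical copy. The Imd kinase subunit key rose (1.04, SE 0.11, the authors' deposited table). Only 7 of 35 antimicrobial peptide genes passed the level filter, of which 3 rose and 3 fell (3 and 1 with library totals), and the other members were below it. Drsl3, at 12.3 normalized counts in Mock, 12.2 at Pe day 3 and 1678 at Pe day 0, passed only through Pe day 0. PGRP-LF, at 18.1 in Mock and 14.4 at Pe day 3, also passed only through Pe day 0. PGRP-SA, at 14.4 in Mock and 25.6 at Pe day 3, passed largely through it. A rise among such genes was favoured by the filter. Among 13 thioester, nimrod and scavenger genes 2 rose and 7 fell as deposited, but 5 were higher and 1 lower with library totals. Tep4, a thioester protein, rose from 1041 to 8868 (3.09, SE 0.13 in the authors' deposited table).

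Many genes of cell shape rose. Of 38 actin genes 24 rose and 5 fell (31 and 1 with library totals), with a median of 0.45. Of 7 Arp2/3 subunits, which branch actin filaments, 5 rose and 0 fell (7 and 0 with library totals). The Arp2/3 subgroup was drawn after its values were seen. The actin isoform Act42A went from 2054 to 11218 normalized counts (2.45, SE 0.19 in the authors' deposited table), but Act5C, the other cytoplasmic actin, was 0.03, SE 0.16 and did not pass the test, though it was higher with library totals. The filament regulators ena (1.58, SE 0.16) and capt (1.20, SE 0.12) rose in the authors' deposited table. Septate and adherens junction genes rose in 16 of 25 members and fell in 2 (21 and 0 with library totals), with a median of 0.56. Among them were mesh, a smooth septate junction protein (1.26, SE 0.13), and the polarity gene sdt (1.29, SE 0.13), in the authors' deposited table.

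Integrins, which bind the basement membrane, moved in both directions as deposited, with 3 of 6 subunits higher and 3 lower, but 4 were higher and 0 lower with library totals. The beta subunit mys (1.19, SE 0.11) and the alpha subunit scb (1.27, SE 0.11) rose, and the alpha subunits mew (-0.80, SE 0.20) and if (-0.96, SE 0.30) fell, in the authors' deposited table. The falls of mew and if did not pass with library totals. The linker rhea (talin) rose from 3434 to 11734 (1.77, SE 0.15 in the authors' deposited table), and all 4 integrin adaptors rose on both scales. Of 10 basement membrane genes 0 rose and 7 fell, with a median of -0.70 (1 and 1 with library totals), and the collagen vkg was -0.85, SE 0.34 (adjusted p = 0.0291) in the authors' deposited table, a fall that did not pass with library totals. These subgroups were drawn after their values were seen. The matrix protease Mmp2 rose 8.01-fold, from 93.9 to 752, in the authors' deposited table. Visceral muscle markers fell in 10 of 11 members and rose in 1 (7 and 1 with library totals), at 0.0635% of Mock and 0.0628% of Pe day 0 counts. The near-equal sums rest on the rising member, Zasp52, which went from 0.0040% to 0.0230% of counts. Haemocyte markers fell in 3 of 5 and trachea markers in 4 of 5 (2 and 1 with library totals). The part of the muscle, haemocyte and trachea markers in the basement membrane result was not tested. Within muscle genes Mhc fell (-1.25, SE 0.12) and Zasp52 rose (1.86, SE 0.12), in the authors' deposited table.

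Members of each detoxification family moved in both directions, as did genes in general. Over all genes 26.7% rose and 28.6% fell as deposited, against 62.3% and 10.9% with library totals. As deposited 29.5% of the cytochrome P450 genes rose and 47.5% fell, and 28.6% and 46.4% of the UDP-glycosyltransferases. Their rising shares were near that over all genes. Of 30 glutathione S-transferases 15 rose and 11 fell (18 and 2 with library totals), of 61 cytochrome P450 genes 18 rose and 29 fell (27 and 19), and of 28 UDP-glycosyltransferases 8 rose and 13 fell (12 and 8). Ugt86Di rose from 35.8 to 895 normalized counts (4.64, SE 0.28 in the authors' deposited table). The juvenile hormone hydrolase Jheh1 fell from 5754 to 1182 (-2.28, SE 0.16, the authors' deposited table). Of 32 metal handling genes 2 rose and 18 fell (13 and 8 with library totals). The metallothioneins MtnA (-1.63, SE 0.20) and MtnC (-1.89, SE 0.15), which bind copper and other metals, and the zinc importer Zip42C.1 (-3.75, SE 0.41) fell in the authors' deposited table. Among 21 redox enzymes 5 rose and 10 fell (11 and 7 with library totals). Nox, an NADPH oxidase, rose (1.69, SE 0.46), and the superoxide dismutase Sod3 (-1.98, SE 0.17) and the cnc inhibitor Keap1 (-1.31, SE 0.20) fell, in the authors' deposited table.

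Cell type markers were uneven. Of 6 enterocyte markers 4 rose and 2 fell (4 and 0 with library totals), at 0.376% of Mock counts and 0.761% of Pe day 0 counts. Much of the larger sum rests on mesh, which went from 0.0885% to 0.337% of counts and is also in the junction list. Enteroendocrine markers fell in 9 of 12 members and rose in 0, at 0.0748% and 0.0535% of counts. With library totals 3 of them were lower and 3 higher. All 4 measured fat body and ovary markers fell (3 with library totals), with a median of -2.02, and of 4 neuron markers 0 passed as deposited and 1 was higher with library totals.

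Values at day 3 are given beside those at day 0 for a few genes. The comparisons share the Mock libraries, and Pe day 3 differs from Mock in age as well. In the authors' deposited table Gadd45 was 5.44, SE 0.13 at day 0 and -0.19, SE 0.15 at day 3, Dronc was 3.51, SE 0.20 and 0.83, SE 0.21, and Ku80 was 2.82, SE 0.21 and 0.68, SE 0.22. Act42A was 2.45, SE 0.19 at day 0 and 0.60, SE 0.19 at day 3 in the authors' deposited table, and mag was -5.27, SE 0.15 and -0.69, SE 0.15. No test of the difference between the days was made here.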

How the data were processed

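RNA was extracted from adult midguts with TRIzol and made into libraries with a TruSeq v2 kit, per the labels' protocols. Tools named by the submitters' processing notes are DESeq2 1.22.0, Salmon 0.11.3, fastp 0.19.5 and CASAVA 1.8, with build BDGP6. Their options, the annotation release and whether strand was used are not stated in the sources used here. Per the file headers the deposited table holds, per gene, a mean signal over libraries (baseMean), and for each comparison a log2 fold change with standard error, a score (the Wald statistic) and a raw and adjusted p-value. A test of counts per library had been planned, but no such counts were in it, and the authors' deposited values serve as the main result.

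Group levels were computed from baseMean and both fold changes, and size factors and depths from genes with a single read, with Python 3.11.15, pandas 2.3.3 and scipy 1.17.1. The arithmetic was tested on simulated data. Positions came from Ensembl release 115. Members and the 65 gene lists were chosen with earlier results of these data known, and the 16 smaller subgroups after their values were seen. Genes named are up to 4 passing members per list and direction by the Wald statistic, members with a defining role that did not pass, the 15 largest changes each way, the 10 largest Wald statistics and the 12 most abundant in Mock. Outside this rule, and chosen after their values were seen, are Dark, Drice, Hr38, InR, Jra, Keap1, Lig4, Lsd-1, LysP, MtnA, Npc1b, Srp54k, FASN1, capt, chinmo, dome, grp, hid, ken, mre11, mus205, peb, rho, slbo, vkg and the numbered genes of the closing section. Other scales, filters and adjustments were tried.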

Additional observations from a re-analysis of the deposited data

How the results depend on the processing

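With library totals the deposited calls of 2228 higher and 2388 lower genes became 5205 and 909, and with totals that leave out the 20 most abundant genes they became 4550 and 1165. Bonferroni adjustment left 1098 higher and 1353 lower, and a Wald test against a change of at most 2-fold left 434 and 453. Setting the median gene to 0 gave 2221 and 2399, a baseMean of at least 10 gave 2309 and 2434, at least 100 gave 1862 and 2135, no filter gave 2391 and 2455, and adjusting over the 8350 genes alone gave 2272 and 2436, all within 1.5 times. No paired analysis was possible because the deposited table holds no value per library, and leaving out single libraries could not be run for the same reason. Of the named genes lok changed sign with library totals, to 0.53, and did not pass as deposited. GC content was not used here.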

Other observations

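Transcripts with numbered symbols, which carry no name in the file, held some of the largest changes, and they were picked after their values were seen. CG12057 went from 121271 normalized counts in Mock to 365 at Pe day 0 (-8.38, SE 0.18 in the authors' deposited table). CG11893 went from 3266 to 50366 (3.95, SE 0.23, the authors' deposited table). CG14204 rose (7.56, SE 0.55) and CG32195 rose (5.14, SE 0.15), both in the authors' deposited table. By day 3 CG12057 was 0.09, SE 0.17 in the authors' deposited table, and both comparisons share the Mock libraries.

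Some genes of large change lay side by side. Counting only runs of at least 3 adjacent measured genes that all changed at least 4-fold in the same direction, a rule chosen after the values were seen, 14 runs held 45 of the 334 genes at least 4-fold higher and with a position, and 14 runs held 58 of the 325 at least 4-fold lower. Most such genes lay in no run. One run of lower genes was the lysozyme cluster from LysB to LysP on 3L. Some runs are tandem copies of a family, and such neighbours may share reads.

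Genes on chromosome 4 were lower on the deposited scale. Of its 64 measured genes 7.81% rose and 50% fell, with a median log2 fold change of -0.44, and the other arms had medians between -0.02 and 0.02. With library totals 43.8% of the 64 were higher and 6.25% lower. Over all measured genes the shares were 26.7% higher and 28.6% lower as deposited, and 62.3% and 10.9% with library totals. Across the 8320 genes with a position, Spearman's rho of the log2 fold change was 0.07 with transcript length, -0.04 with the number of introns and -0.20 with baseMean. With genes split into 5 classes by transcript length, the median log2 fold change was -0.21 in the shortest class and 0.00 in the longest. Without ribosomal, respiratory chain and trypsin-like protease genes it was -0.12 in the shortest class. In the highest of 3 baseMean classes the shortest and longest transcripts had medians of -0.80 and -0.04. In the lowest they had 0.05 and -0.09, so there the shortest were not below the longest. The length classes between them had medians of 0.35, 0.26 and 0.10 in the lowest baseMean class, above the shortest. These are descriptions across genes, which are not independent replicates.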
